A study of Homo sapiens with 4 samples.

Results

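The insulin-like growth factor (IGF) system was described here through 10 genes in NCI-H1048 cells: the receptors IGF1R, INSR and IGF2R, the ligand IGF2, and the 6 binding proteins IGFBP2, IGFBP3, IGFBP4, IGFBP5, IGFBP6 and IGFBP7. They were taken by gene symbol from 35979 symbols in the tables, and all 10 passed a minimum mean normalized count of 20 over the 4 libraries, which 14940 symbols did. The 10 were chosen by readout as well as by pathway, since the rise of IGFBP5 in these libraries was known when the list was drawn up. Their differences from the non-targeting library are therefore given as descriptions, with no test.

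IGF1 and IGF2 act through IGF1R, a receptor tyrosine kinase closely related to the insulin receptor INSR, and signal through the IRS adaptors to PI3K and AKT. IGF2R has no kinase domain; it binds IGF2 and carries it to lysosomes together with enzymes that bear mannose 6-phosphate. The secreted binding proteins hold IGFs outside the cell and can keep them from the receptor or deliver them to it, while proteases such as PAPPA release the ligand. Small cell lung cancer of the tuft cell-like subtype is driven by the transcription factor POU2F3, and its cell lines have been reported to depend on IGF1R.

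NCI-H1048 is a long-established line of human small cell lung cancer, and the study's title concerns the tuft cell-like subtype. Poly(A) RNA was sequenced from cells given a guide RNA (gRNA) against COLCA2 (genotype COLCA2 knockout, 2 libraries, each from a different guide), a gRNA against POU2F3 (genotype POU2F3 knockout, 1 library) or a non-targeting gRNA (genotype WT, 1 library), which serves as the control. COLCA2 is studied as a co-activator of POU2F3, so the comparisons ask which genes change when either is targeted. The labels do not say whether a library came from a clone or a pool of cells, nor how long after the guide the RNA was taken.

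Between 21587741 and 29632382 reads per library were assigned to genes. POU2F3 had a normalized count of 14602 in the control, 1449 with the POU2F3 guide, and 3677 and 2351 with COLCA2 guides 1 and 2. COLCA2 had 5585 in the control, 1393 with the POU2F3 guide, and 3119 and 3541 with its own guides, so the targeted transcripts were lower in the libraries labelled as edited. Of 10 tuft cell markers, 7 passed the minimum. Of these, 6 (the targeted POU2F3, and GFI1B, AVIL, SOX9, BMX and LRMP) were at least 2-fold lower in the 3 edited libraries. Of all genes, 2.02% were lower with both COLCA2 guides and 3.05% with the POU2F3 guide. TRPM5 and CHAT had at most 11 reads in any library. Every ratio below has the same non-targeting library beneath it, so the COLCA2 and POU2F3 comparisons share their control and are set side by side. The spread between the COLCA2 guides, which joins guide, culture and library differences, was the only error within a group. In bulk RNA, a smaller share of expressing cells and less RNA per cell cannot be told apart.

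The 250 bases before the RefSeq start (GRCh38.p14) are shown for 4 of the 5 genes that were at least 2-fold higher in every edited library, and for IGF2R, which was not. RefSeq windows matched 8 of the 10 genes, with 10 windows among them; IGF2 and IGFBP7 were not matched. Capitals mark a motif found by search on both strands.
IGFBP5, chr2:216695550-216695799, minus strand: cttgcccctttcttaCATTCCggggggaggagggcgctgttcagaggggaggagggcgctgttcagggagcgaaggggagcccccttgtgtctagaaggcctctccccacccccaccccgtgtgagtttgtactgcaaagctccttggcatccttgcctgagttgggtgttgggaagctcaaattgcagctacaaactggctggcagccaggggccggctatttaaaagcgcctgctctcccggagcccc
IGFBP3, chr7:45921273-45921522, minus strand: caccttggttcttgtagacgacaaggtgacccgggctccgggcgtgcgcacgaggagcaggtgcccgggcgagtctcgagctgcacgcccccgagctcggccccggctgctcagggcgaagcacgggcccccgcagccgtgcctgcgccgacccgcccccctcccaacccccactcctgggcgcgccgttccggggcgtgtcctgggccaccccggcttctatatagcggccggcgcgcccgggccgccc
IGFBP4, chr17:40443200-40443449, plus strand: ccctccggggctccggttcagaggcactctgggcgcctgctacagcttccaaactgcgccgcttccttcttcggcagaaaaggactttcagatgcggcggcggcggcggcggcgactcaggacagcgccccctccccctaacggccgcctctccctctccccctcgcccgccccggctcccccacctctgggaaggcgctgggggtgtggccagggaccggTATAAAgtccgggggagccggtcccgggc
IGF1R, chr15:98648289-98648538, plus strand: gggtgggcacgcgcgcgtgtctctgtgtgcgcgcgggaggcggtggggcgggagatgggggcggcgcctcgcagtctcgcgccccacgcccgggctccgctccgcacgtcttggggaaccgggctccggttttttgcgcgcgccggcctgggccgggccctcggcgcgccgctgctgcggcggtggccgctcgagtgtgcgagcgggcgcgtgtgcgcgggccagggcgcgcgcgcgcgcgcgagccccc
IGF2R, chr6:159968832-159969081, plus strand: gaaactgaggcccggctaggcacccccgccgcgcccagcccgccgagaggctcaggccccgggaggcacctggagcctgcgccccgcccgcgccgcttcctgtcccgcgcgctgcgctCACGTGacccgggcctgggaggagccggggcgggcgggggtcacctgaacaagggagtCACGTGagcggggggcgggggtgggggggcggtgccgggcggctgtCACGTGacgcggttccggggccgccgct
The octamer ATGCAAAT, the motif bound by POU2F factors, was in none of the 10 windows of these genes, against 573 (1.63%) of all 35116 windows. The TEAD motif GGAATG, read as CATTCC on the strand shown, began 235 bases before the start of IGFBP5. It was also found in the IGFBP6 window, 101 bases before the start, and 11.9% of all windows held it. The TATA motif TATAAA began 29 bases before the start of IGFBP4 and was in 10.7% of all windows. The E-box CACGTG occurred 3 times before IGF2R, the first 132 bases before the start. It was in 6.34% of all windows, and 28 windows (0.0797%) held it at least 3 times, a cut taken from IGF2R itself. The AP-1 motif TGANTCA was in none of the 10 windows and in 6.57% of all. A window with no match says only that those letters are missing from these 250 bases. RefSeq starts can differ from the gene spans given below. The IGFBP3 window lies wholly inside its span, which runs to 45921874, and most of the IGFBP6 window lies inside that of IGFBP6.

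The windows differed in base composition. GC content was 81.2% for IGF1R, with 48 CpG pairs, and 61.2% for IGFBP5, with 8, while the median of all windows was 58.0% with 11 CpG pairs. The other windows had 76.0% GC for IGFBP3, 71.6% for IGFBP4, 78.4% for INSR, 79.2% for IGF2R and 61.2% for IGFBP6, and the 3 windows of IGFBP2 had 56.4% to 69.2%. Windows above the median GC thus occurred among genes at least 2-fold higher and among genes that were not. The IGFBP2 windows at 56.4% and 56.8% lay below it.

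IGF1R and 4 of the 6 binding proteins were higher in the edited libraries by 2-fold or more, while INSR, IGF2R, IGF2, IGFBP2 and IGFBP6 were not. IGF1R, IGFBP3, IGFBP4, IGFBP5 and IGFBP7 were at least 2-fold above the non-targeting library with both COLCA2 guides, and again with the POU2F3 guide. That is 5 of 10 genes where 5.79% of all genes were higher with both COLCA2 guides and 6.73% with the POU2F3 guide; because the list was chosen by this contrast, nothing is read from the share. None of the 10 was at least 2-fold lower, where 2.02% of all genes were with both COLCA2 guides and 3.05% with the POU2F3 guide. The median log2 ratio of the 10, on the log2(normalized count + 1) scale used for every log2 ratio here, was 1.22 with COLCA2 guide 1, 1.15 with COLCA2 guide 2 and 0.93 with the POU2F3 guide, where the medians of all genes lay between -0.0052 and -0.0017. Near the 2-fold line lay IGF1R, just past it at 1.08 with the POU2F3 guide, and IGFBP6, short of it at 0.85 with COLCA2 guide 1. IGF2 was past it in the other direction with COLCA2 guide 2 (-1.06) but not with COLCA2 guide 1 (-0.55).

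**Figure D1:**
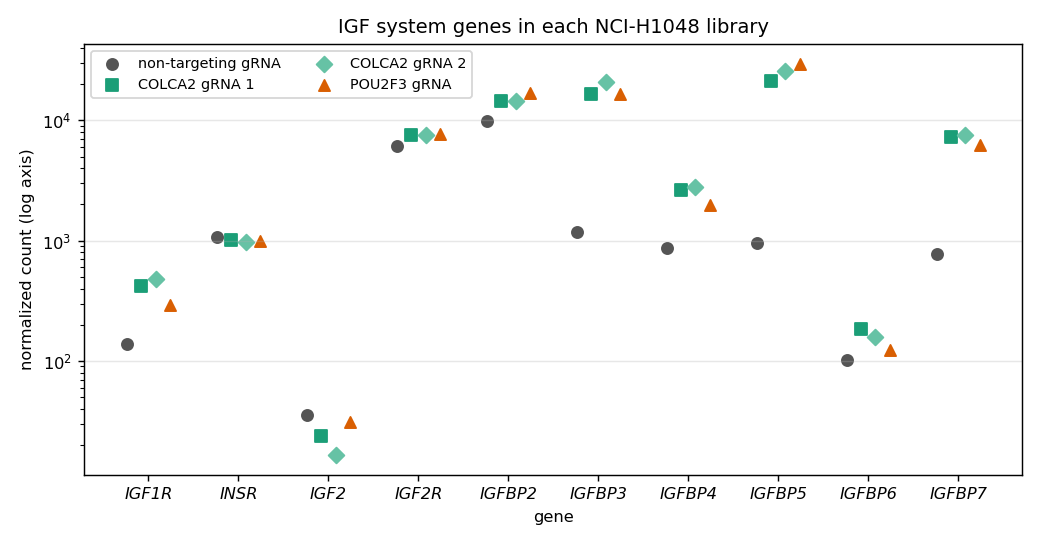
Normalized count (log axis) of the 10 genes in each of the 4 libraries, 1 point a library. The edited libraries sit well above the non-targeting point for IGFBP3, IGFBP5 and IGFBP7, close to it for INSR, and below it for IGF2.

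**Figure D2:**
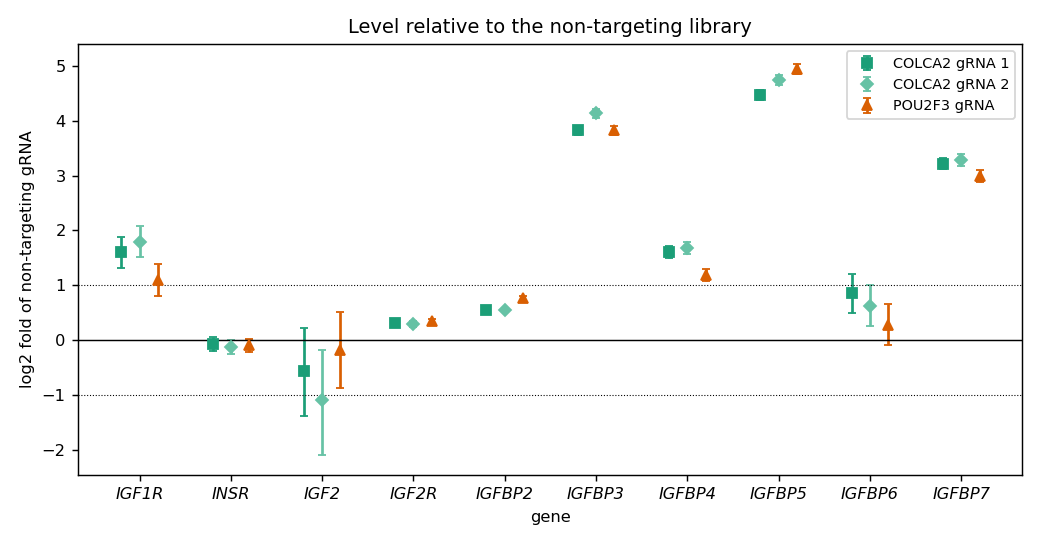
Log2 fold of the non-targeting library (no pseudocount) for each gene in the 3 edited libraries; bars are 95% exact intervals that cover counting error only, and dotted lines mark 2-fold. IGFBP5 is highest, at 22.2-fold to 31.0-fold, and the bars of IGF2 are the widest.

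IGF1R (ENSG00000140443, chromosome 15, 98648539 to 98964530, plus strand, GRCh38) is the receptor that most IGF signalling passes through. Its normalized count was 416 with COLCA2 guide 1, 477 with COLCA2 guide 2, 292 with the POU2F3 guide and 138 in the control. The non-targeting library was the lowest, and the POU2F3 library lay between it and the COLCA2 guides. The fold was 3.02 (95% exact interval 2.49 to 3.68) and 3.47 (2.86 to 4.23) with COLCA2 guides 1 and 2, a mean log2 ratio of 1.69 ± 0.14 (SD, n = 2). With the POU2F3 guide it was 2.12 (1.74 to 2.60). These intervals, like all others here, are from read counts (144 to 406 reads for IGF1R) and cover counting error only.

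INSR (ENSG00000171105, chromosome 19, 7112255 to 7294034, minus strand), the insulin receptor, which can also pair with IGF1R in hybrid receptors, stayed near the non-targeting level. Its normalized count was 1015, 976 and 999 with COLCA2 guide 1, COLCA2 guide 2 and the POU2F3 guide, and 1066 in the control. All 3 edited libraries were slightly lower, with folds of 0.952 (0.873 to 1.04), 0.916 (0.836 to 1.0) and 0.937 (0.863 to 1.02). The mean log2 ratio with the COLCA2 guides was -0.10 ± 0.040 (SD, n = 2), and each counting interval included a fold of 1.

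The balance of the 2 receptor transcripts differed between the control and the edited libraries. Dividing normalized counts by the length of the longest protein-coding transcript in GENCODE release 29 (12235 bases for IGF1R and 8954 for INSR), INSR was 10.6 times IGF1R (8.90 to 12.7) per kilobase in the non-targeting library. The ratio was 3.34 (2.97 to 3.76) with COLCA2 guide 1, 2.79 (2.48 to 3.15) with COLCA2 guide 2 and 4.67 (4.14 to 5.28) with the POU2F3 guide. INSR was thus the more abundant transcript per kilobase in each library, by less in the edited ones.

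IGF2R (ENSG00000197081, chromosome 6, 159969099 to 160113507, plus strand), the mannose 6-phosphate receptor that removes IGF2, was modestly higher. Normalized counts were 7581 and 7501 with COLCA2 guides 1 and 2, 7738 with the POU2F3 guide and 6111 in the control. The 3 edited libraries lay close together and above the control. The folds were 1.24, 1.23 and 1.27, and the mean log2 ratio with the COLCA2 guides was 0.30 ± 0.011 (SD, n = 2).

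IGF2 (ENSG00000167244, chromosome 11, 2129112 to 2149603, minus strand) was the only ligand gene among the 10, and per kilobase of transcript it was the least abundant of them in each library. Its normalized count was 23.8 with COLCA2 guide 1, 16.5 with COLCA2 guide 2, 31.1 with the POU2F3 guide and 35.3 in the control, from 14 to 37 reads. The COLCA2 guides gave the lower values, with folds of 0.675 (0.383 to 1.17) and 0.466 (0.233 to 0.883), and the POU2F3 fold was 0.879 (0.542 to 1.43). Of the 3, the interval of COLCA2 guide 2 alone left out a fold of 1; the others were not distinguishable from no change at this depth. IGF2 shares its locus with the read-through gene INS-IGF2, which was listed at 0 in the 4 libraries. An antisense gene, IGF2-AS, also overlaps it, and whether counting used the strand is not given in the sources used here. Antisense genes also overlap IGF1R, IGF2R, IGFBP5 and IGFBP7, so their values share that uncertainty.

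IGFBP2 (ENSG00000115457, chromosome 2, 216632828 to 216664436, plus strand) was the most abundant binding protein transcript of the non-targeting library per kilobase. Normalized counts were 14476 and 14501 with COLCA2 guides 1 and 2, 16862 with the POU2F3 guide and 9885 in the control. It was higher in each edited library without reaching 2-fold: the folds were 1.46, 1.47 and 1.71 (1.67 to 1.75 for the POU2F3 guide). The guides gave nearly the same value, a mean log2 ratio of 0.55 ± 0.0017 (SD, n = 2).

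IGFBP3 (ENSG00000146674, chromosome 7, 45912245 to 45921874, minus strand), the main IGF carrier of serum, was among the larger rises. The normalized count was 16666 with COLCA2 guide 1, 20738 with COLCA2 guide 2, 16663 with the POU2F3 guide and 1177 in the control. The edited libraries stood far above the control, and the POU2F3 library stood beside COLCA2 guide 1. Folds were 14.2 (13.4 to 15.0), 17.6 (16.6 to 18.7) and 14.2 (13.4 to 15.0), and the mean log2 ratio with the COLCA2 guides was 3.98 ± 0.22 (SD, n = 2).

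IGFBP4 (ENSG00000141753, chromosome 17, 40443461 to 40457731, plus strand), which the protease PAPPA cleaves, was higher by less. It had normalized counts of 2627 and 2775 with COLCA2 guides 1 and 2, 1972 with the POU2F3 guide and 864 in the control. The POU2F3 library again lay between the control and the guides, with folds of 3.04 (2.82 to 3.28), 3.21 (2.97 to 3.47) and 2.28 (2.11 to 2.47). The mean log2 ratio with the COLCA2 guides was 1.64 ± 0.056 (SD, n = 2).

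IGFBP5 (ENSG00000115461, chromosome 2, 216672105 to 216695525, minus strand), a binding protein that also attaches to extracellular matrix, rose furthest of the 10. Its normalized count was 21199 with COLCA2 guide 1, 25747 with COLCA2 guide 2, 29620 with the POU2F3 guide and 957 in the control. Here the POU2F3 library was above both guides. Folds were 22.2 (20.8 to 23.6), 26.9 (25.3 to 28.7) and 31.0 (29.1 to 33.0), and the mean log2 ratio with the COLCA2 guides was 4.61 ± 0.20 (SD, n = 2). IGFBP2 lies 7669 bp away on the opposite strand, and its folds of 1.46 to 1.71 show how unequally this neighbouring pair moved.

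IGFBP6 (ENSG00000167779, chromosome 12, 53097436 to 53102345, plus strand), which prefers IGF2 to IGF1, was the binding protein with the fewest reads. Its normalized counts were 185, 158 and 124 with COLCA2 guide 1, COLCA2 guide 2 and the POU2F3 guide, and 102 in the control. The guides gave folds of 1.81 (1.41 to 2.32) and 1.54 (1.19 to 2.01), above the control beyond counting error, and the POU2F3 guide gave 1.22 (0.942 to 1.57), within it.

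IGFBP7 (ENSG00000163453, chromosome 4, 57030773 to 57110385, minus strand) binds IGFs weakly and is also a matrix-associated protein. Its normalized count was 7261 with COLCA2 guide 1, 7604 with COLCA2 guide 2, 6207 with the POU2F3 guide and 780 in the control. The 3 edited libraries were close to one another, with folds of 9.31 (8.66 to 10), 9.75 (9.06 to 10.5) and 7.96 (7.40 to 8.56). The mean log2 ratio with the COLCA2 guides was 3.25 ± 0.047 (SD, n = 2). Its gene overlaps POLR2B on the opposite strand by 396 bp; POLR2B had 5447 to 7699 reads per library, and 5513 in the non-targeting library.

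Reads of the 6 binding proteins together made up 0.0567% of all assigned reads in the control. They made up 0.244%, 0.282% and 0.287% with COLCA2 guide 1, COLCA2 guide 2 and the POU2F3 guide. The summed normalized count was 13766 in the control and 62414, 71523 and 71447 in the edited libraries, folds of 4.53, 5.20 and 5.19. The make-up of that sum changed as well. IGFBP2 held 71.8% (71.1% to 72.5%) of the binding protein reads in the control, and 23.2%, 20.3% and 23.6% in the edited libraries. IGFBP5 went from 6.95% to 34.0%, 36.0% and 41.5%, which made it the largest share of reads in each edited library. IGFBP3 went from 8.55% to 26.7%, 29% and 23.3%. The fall in the IGFBP2 share came with a higher IGFBP2 level, since IGFBP3, IGFBP5 and IGFBP7 were higher by more.

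Long transcripts give more reads per molecule, and IGFBP5 (6215 bases) is longer than IGFBP2 (1439 bases) by the longest protein-coding transcript. Per kilobase, the IGFBP2 share was 80.5% in the control and 37.5%, 34.1% and 40.8% in the edited libraries, the largest in all 4. The per kilobase share of IGFBP5 went from 1.80% to 12.7%, 14.0% and 16.6%. The place of IGFBP2 rests on the transcript chosen: with its longest transcript of any kind (4414 bases, noncoding), its share was 57.3% in the control and 16.4%, 14.4% and 18.3% in the edited libraries. Its share was lower in the edited libraries on each scale.

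**Figure D3:**
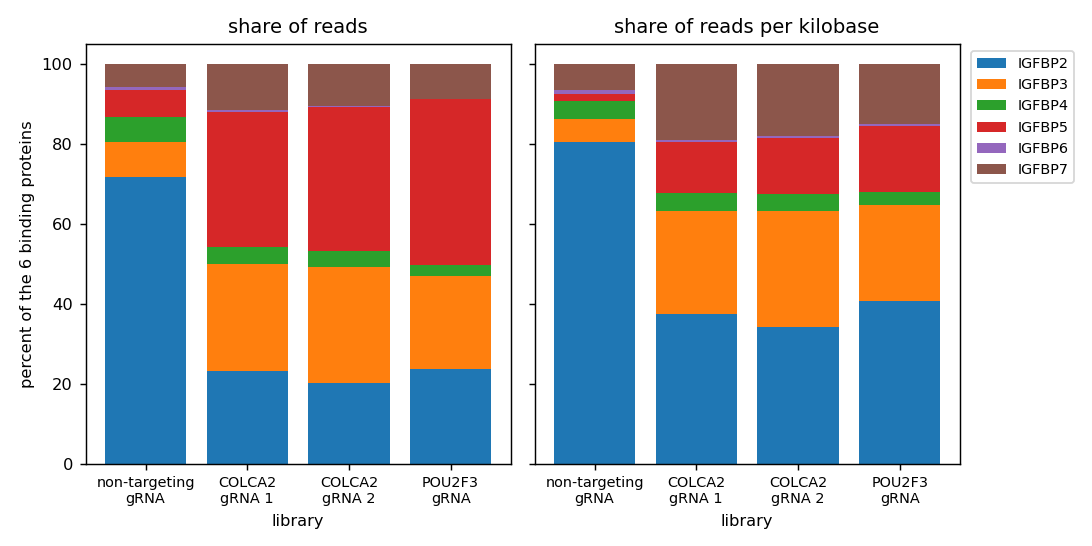
Percent of the summed level of the 6 binding proteins held by each, per library, as reads (left) and as reads per kilobase of the longest protein-coding transcript (right). IGFBP2 falls from 71.8% to between 20.3% and 23.6% of reads, and IGFBP5 is the largest part by reads, but not per kilobase, in the edited libraries.

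Among 14369 genes with a length, normalized count per kilobase placed IGFBP5 at rank 7834 in the control and at 434, 330 and 257 with COLCA2 guide 1, COLCA2 guide 2 and the POU2F3 guide. IGFBP3 moved from rank 3560 to between 149 and 193, and IGFBP7 from 3195 to between 253 and 297. Those 3 genes thus passed from the middle or upper part of the transcriptome into its top few percent. IGF1R stayed low, from rank 13207 to between 11453 and 12331. IGF2 went from rank 13801 to between 14045 and 14280, near the bottom.

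Per kilobase, the order in the non-targeting library ran from IGFBP2 (6870 normalized counts per kilobase) through IGFBP7 (547), IGFBP3 (488), IGF2R (435), IGFBP4 (393), IGFBP5 (154), INSR (119), IGFBP6 (86.8) and IGF1R (11.2) to IGF2 (6.33). With both COLCA2 guides the order was IGFBP2, IGFBP3, IGFBP7, IGFBP5, IGFBP4, IGF2R, IGFBP6, INSR, IGF1R and IGF2. With the POU2F3 guide IGFBP5 (4766 per kilobase) stood above IGFBP7 (4350), and INSR (112) stood beside IGFBP6 (106), a pair within counting error of each other. IGF2R had been above IGFBP4 and IGFBP5 per kilobase in the control and was below both in each edited library.

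None of the 10 genes differed by 2-fold between the POU2F3 guide and the mean of the COLCA2 guides, where 1.02% of all genes were higher and 1.39% lower with the POU2F3 guide. On the log2 scale the POU2F3 library was lower than that mean by 0.61 for IGF1R (difference -0.61), with a gap between the guides of -0.20. IGFBP4 and IGFBP6 each differed by -0.45, with gaps between the guides of -0.079 and 0.23, and IGFBP7 differed by -0.26, with a gap of -0.067. IGFBP5 went the other way, 0.34 higher with the POU2F3 guide beside a gap of -0.28, as did IGFBP2 at 0.22 beside -0.0024. For INSR (0.0050 beside 0.056) and IGFBP3 (-0.16 beside -0.32) the difference was smaller than the gap between the guides. IGF2 differed by 0.62 beside 0.51, from 14 to 37 reads. The POU2F3 group held 1 library, so these differences have no replicate check.

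**Figure D4:**
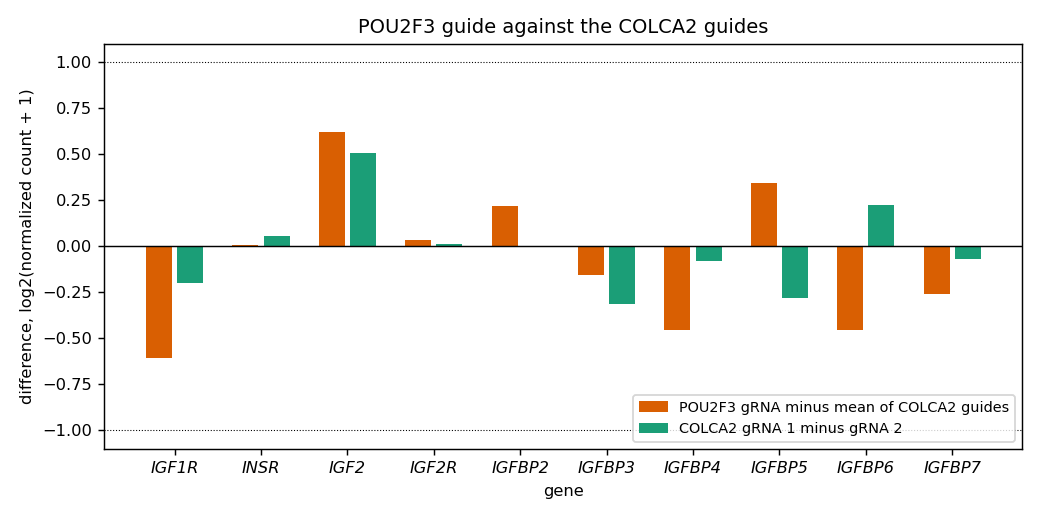
Difference in log2(normalized count + 1) between the POU2F3 guide and the mean of the COLCA2 guides (orange) beside that between COLCA2 guides 1 and 2 (green); dotted lines mark 2-fold. No gene reaches 2-fold, and IGF1R (-0.61) and IGF2 (0.62) come nearest.

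The other genes of the pathway were followed through a list of 63, of which 62 were in the tables (H19 was not matched) and 52 passed the minimum. Of the 52, 6 (11.5%) were at least 2-fold higher with both COLCA2 guides and 1 lower; 7 (13.5%) were higher and 3 lower with the POU2F3 guide. Of all genes, 5.79% were higher and 2.02% lower with both COLCA2 guides, and 6.73% and 3.05% with the POU2F3 guide. CCN1, CCN2, CCN3 and CRIM1, which are not classical IGF binders, made up 4 of the 6 and 4 of the 7. The list was drawn up with earlier results known, so nothing is read from the shares. The median log2 ratio of the list was 0.015, 0.0081 and 0.13 with COLCA2 guide 1, COLCA2 guide 2 and the POU2F3 guide. Most of the list, like most of all genes, was not called against the control.

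Ligand genes were scarce. IGF1 had normalized counts of 19.7, 28.2 and 27.7 with COLCA2 guide 1, COLCA2 guide 2 and the POU2F3 guide and 19.1 in the control, from 19 to 33 reads. INS, which encodes insulin, and IGFBP1 were listed at 0 in the 4 libraries. Neither ligand of IGF1R therefore had more than 37 reads in any library.

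Among the adaptors, IRS2 was the only one higher by 2-fold in every edited library. IRS2, which couples both receptors to PI3K, had normalized counts of 3144 and 3708 with COLCA2 guides 1 and 2, 2820 with the POU2F3 guide and 565 in the control. That was 5.56, 6.56 and 4.99 times the control, and a mean log2 ratio of 2.59 ± 0.17 (SD, n = 2) with the COLCA2 guides. Its relative IRS1 had 1124, 861, 676 and 511 in the same order of libraries, with log2 ratios of 1.14, 0.75 and 0.40, so 1 guide passed 2-fold and the other libraries did not. GRB14, an adaptor that inhibits the insulin receptor, was lower with the POU2F3 guide (log2 ratio -1.68), with -0.76 and -1.47 for the COLCA2 guides. IRS2 and GRB14 were the adaptors called among 10 past the minimum. The shares of all genes were 5.79% higher and 2.02% lower with both COLCA2 guides, and 6.73% and 3.05% with the POU2F3 guide. With so few adaptors, nothing is read from the count.

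Of the 16 PI3K and AKT pathway genes past the minimum, none was called with both COLCA2 guides. Of all genes, 5.79% were higher and 2.02% lower with those guides, and 6.73% and 3.05% with the POU2F3 guide. With the POU2F3 guide, PIK3R1 (a regulatory subunit of PI3K) had a log2 ratio of 1.30 and TSC1 (a brake on mTOR) one of -1.23, beside 0.62 and 0.89 for PIK3R1 and -0.75 and -1.14 for TSC1 with the COLCA2 guides. The AKT1 log2 ratios were -0.08, -0.14 and -0.10, under 2-fold in each edited library. None of 6 partners and traffic genes, 3 FOXO genes or 3 IGF2 RNA-binding genes was called in the comparisons with the control. So few genes would hold few or no calls at the shares of all genes, so nothing is read from these counts.

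The genes that govern release from the binding proteins differed in both directions. PAPPA, the protease that frees IGF from IGFBP4, had normalized counts of 87.1 and 41.2 with COLCA2 guides 1 and 2, 28.5 with the POU2F3 guide and 19.1 in the control, from 20 to 84 reads. Both guides passed 2-fold (log2 ratios 2.13 and 1.07), and the POU2F3 guide did not (0.56). PAPPA was below the minimum of 20 in the control and passed it through the edited libraries. With a pseudocount of 10 the second COLCA2 guide fell short (0.81), which ends the PAPPA call. STC1, an inhibitor of PAPPA, was lower throughout, with 2019, 1716 and 1171 in the edited libraries against 4685, log2 ratios of -1.21, -1.45 and -2.00. STC2, which inhibits the same protease, had log2 ratios of -0.26, -0.11 and -0.66. HTRA1, a protease that cleaves IGFBP5 among other substrates, had log2 ratios of 0.76, 0.86 and 1.02, the last being past 2-fold. That HTRA1 call ended under scaling to equal totals or to the upper quartile, where the POU2F3 ratio was 0.99. ADAM28, listed with these proteases, went down, with log2 ratios of -2.11, -0.56 and -0.94 from 11 to 55 reads. Among the 5 genes of this role past the minimum, 1 was called higher and 1 lower for each target. The shares of all genes were 5.79% and 2.02% with both COLCA2 guides, and 6.73% and 3.05% with the POU2F3 guide. Nothing is read from so small a count.

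Secreted and membrane proteins that carry an IGF-binding-protein domain but are not classical IGF binders were higher in 4 of the 8 cases past the minimum, beside 5.79% of all genes with both COLCA2 guides and 6.73% with the POU2F3 guide; the list was drawn up with earlier results known. CCN1 had normalized counts of 18379 and 21551 with COLCA2 guides 1 and 2, 20909 with the POU2F3 guide and 3202 in the control. CCN2 had 10015, 12567 and 12891 against 1159. CCN3 had 304, 294 and 370 against 92.6, and CRIM1 8522, 10456 and 10037 against 1177. These 4 genes were at least 2-fold higher in the 3 edited libraries, with log2 ratios from 1.66 for CCN3 to 3.47 for CCN2. IGFBPL1, a gene like the IGFBPs, was lower, with log2 ratios of -0.51, -0.62 and -0.68, under 2-fold.

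**Figure D5:**
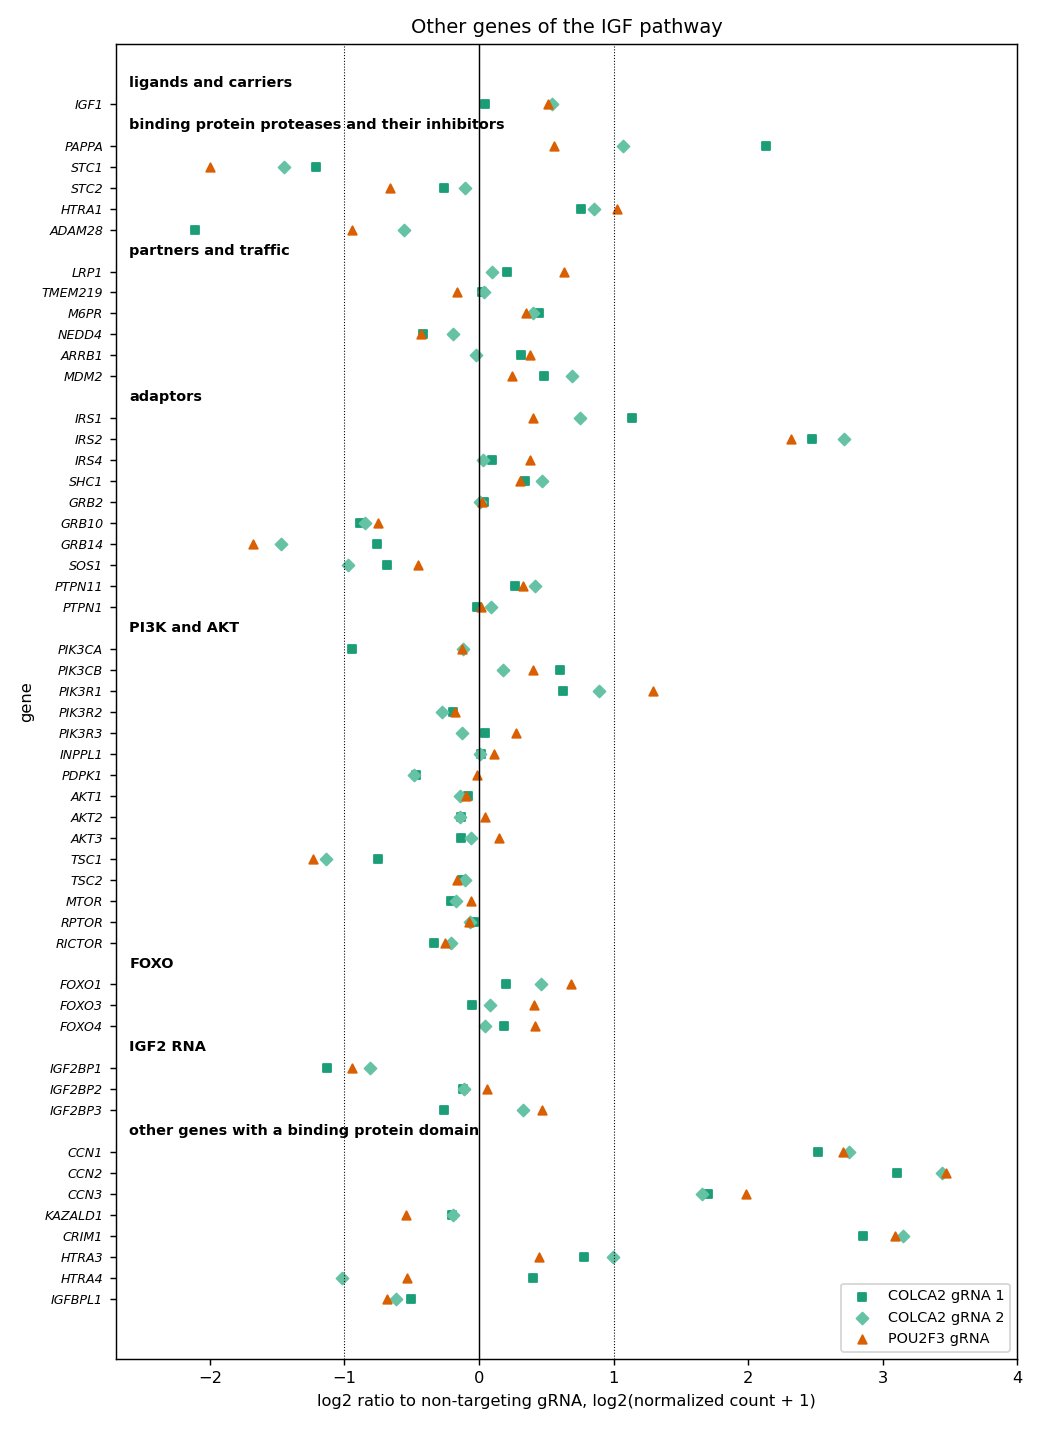
Log2 ratio to the control for the pathway genes past the minimum (1 not shown), by role, with 1 point for each edited library; dotted lines mark 2-fold. IRS2, CCN1, CCN2, CCN3 and CRIM1 lie beyond 2-fold on the right in the 3 libraries, STC1 lies beyond it on the left, and most others lie between the lines.

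Binding proteins are made in quantity by fibroblasts, so markers of other cells were read beside them. Of 7 fibroblast markers, 6 passed the minimum and 3 were at least 2-fold higher in the 3 edited libraries: COL3A1 (412, 363 and 317 against 47.7), LUM (233, 201 and 123 against 14.3) and PDGFRB (187, 120 and 79.7 against 22.9, all in normalized counts). LUM was below the minimum in the control and passed it through the edited libraries. The other fibroblast markers past the minimum were under 2-fold in each edited library. COL1A1 was 1186, 1008 and 1002 against 1136, DCN 34.2, 61.2 and 50.4 against 35.3, and PDGFRA 110, 81.1 and 213 against 124. For comparison, 5.79% of all genes were higher with both COLCA2 guides and 6.73% with the POU2F3 guide. The list was drawn up with earlier results known, so nothing is read from its count. Its summed normalized count was 1798 to 2185 in the edited libraries against 1391, with none of the 7 listed at 0. The endothelial markers summed to 41.5 to 52.9 against 65.9, with KDR listed at 0, and the leukocyte markers to 14.5 to 25.2 against 25.8, with CD3E listed at 0. Neuroendocrine markers summed to 90.6 to 94.8 against 198, with 2 of the 5 past the minimum. These were INSM1 (23.8, 24.7 and 35.3 against 118) and SYP (60.1, 48.2 and 52.0 against 74.5). NEUROD1, short of the minimum, had 7.26, 12.9 and 2.52 against 2.86. The part of these markers in the binding protein rise was not tested.

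The genes whose 3 log2 ratios lay closest to those of IGFBP5, by Euclidean distance over the 3 edited libraries, were CYP4Z1 (distance 0.30), MMP1 (0.41) and FST (0.59). FST, which encodes the activin-binding protein follistatin, had normalized counts of 1875, 2129 and 1565 against 72.6. CYP4Z1 had 36.3, 44.7 and 61.3 against 0.955, which is 1 read, and MMP1 had 20.7, 34.1 and 26.9 and was listed at 0 in the control, so their distances rest on the pseudocount. Closest to IGF1R were ETS2 (0.12), PMEPA1 (0.12) and SERPINB8 (0.14). ETS2 had normalized counts of 770, 849 and 563 against 265, PMEPA1 921, 996 and 620 against 283, and SERPINB8 683, 760 and 530 against 234. Their shared order of libraries follows from the way they were picked.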

How the data were processed

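Poly(A) RNA of 4 NCI-H1048 libraries was measured by sequencing. The submitters' processing notes name Salmon, DESeq2 and hg38, without versions or the step each was used for. The deposited tables give a linear signal, normalized counts by gene per the file headers; every value (100%) was a whole multiple of a library's own step (tolerance 0.01 read), so reads were recovered by dividing by that step. The factors were 0.965 and 0.850 for COLCA2 gRNA 1 and 2, 1.19 for the POU2F3 guide and 1.05 for the control; how the authors set them is not given in the sources used here. Whole values can also come from estimated counts that were rounded.

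The tables held 38145 rows; rows of the same symbol were summed (each of the 10 genes had 1 row). Genes whose normalized count averaged at least 20 over the 4 libraries were kept. Log2 ratios to the non-targeting library used a pseudocount of 1, which understates changes of low genes, and 2-fold calls needed both COLCA2 guides; no test was used because 2 of the 3 groups held 1 library. As an alternative, edgeR 4.0.16 (quasi-likelihood, TMM, Benjamini-Hochberg at 0.05, 1 residual degree of freedom, from the COLCA2 guides) was run on the recovered reads. It called 1709 genes higher and 1122 lower with COLCA2 gRNA, 1263 and 595 with POU2F3 gRNA, and 16 and 35 for POU2F3 against COLCA2 gRNA; for POU2F3 it borrows the guides' spread and compares libraries. The scripts were tested on simulated data. Other alternatives were 3 scalings, 2 other values each of the pseudocount, minimum and fold threshold, the omission of either guide, and other transcript lengths. Intervals are 95% exact (Clopper-Pearson) and cover counting error only, as no molecular identifiers separate molecules from copies. Positions, lengths and neighbours are from GENCODE release 29 (GRCh38), and lengths were matched for 96.2% of the genes kept. Promoter windows are RefSeq's (GRCh38.p14). Python 3.11.15 and R 4.3.3 were used.

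The 10 genes, the pathway list and the marker lists (tuft, neuroendocrine, fibroblast, endothelial, leukocyte) were chosen with earlier results of these data known. Named genes were the 10, pathway genes called in the same direction in the 3 edited libraries, IRS1, IRS2, IGF1, INS, IGFBP1, PAPPA, STC2, the 3 genes nearest in pattern to IGFBP5 and to IGF1R, nearest expressed neighbours and the targeted genes; other pathway and marker genes were named after their values were seen. The values of 1 pathway gene are not reported here.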

Additional observations from a re-analysis of the deposited data

How the results depend on the processing

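The same 5 of the 10 genes were at least 2-fold higher with both COLCA2 guides and with POU2F3 gRNA under the 3 other scalings and both other pseudocounts. They were also the 5 without an expression minimum and without either guide. Those settings could not lose any of the 5, which had already passed the minimum and 2-fold with both guides. A minimum mean of 100 left out IGF2 and kept those 5. A 1.5-fold threshold gave 6 for each target (IGFBP6 added for COLCA2, IGFBP2 for POU2F3) and 2 apart between the targets (IGF2 and IGF1R); 4-fold gave 3 and 3 (IGFBP3, IGFBP5 and IGFBP7). The number lower with COLCA2 gRNA ranged from 0 to 1 when 1 guide was left out, the 1 being IGF2 without gRNA 1. Of 140 alternative values of the genes' log2 ratios, 14 moved beyond the spread used for comparison and 0 changed sign. Only the scalings could have changed a sign. Another pseudocount keeps it, the COLCA2 guides shared it for each gene, and each gene had 1 row. The largest shift of the all-gene median under another scaling was -0.079. The IGFBP2 share was 16.4%, 14.4%, 18.3% and 57.3% (COLCA2 gRNA 1, COLCA2 gRNA 2, POU2F3 gRNA, non-targeting) after division by the longest transcript, and 37.5%, 34.1%, 40.8% and 80.5% with the longest protein-coding one, an alternative chosen after seeing the data. Keeping the row with the highest mean gave identical values, since each gene had 1 row. No paired analysis was possible because fewer than 2 replicate numbers are shared between groups.

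Over all genes, the counts higher and lower at 1.5-fold were 1451 and 901 for COLCA2, 1822 and 1149 for POU2F3, and 597 and 555 between the targets. At 4-fold they were 346 and 44, 365 and 113, and 34 and 43. Without a minimum they were 1857 and 1028, 2551 and 1639, and 1375 and 1276. A minimum mean of 100 gave 177 lower for COLCA2, 631 and 233 for POU2F3, and 28 and 81 between the targets, and a pseudocount of 10 gave 95 higher there. Leaving out a guide gave 477 to 544 lower with COLCA2 gRNA. The edgeR test called 1709 and 1122 for COLCA2 and 16 and 35 between the targets. In the pathway list, 1.5-fold gave 10 higher and 6 lower for COLCA2, 8 lower for POU2F3 and 2 lower between the targets; 4-fold gave 0 lower for COLCA2, 4 higher and 0 lower for POU2F3 and 0 lower between the targets. A pseudocount of 10 ended the PAPPA call with COLCA2 (5 higher), and equal totals or the upper quartile ended the HTRA1 call with POU2F3 (6 higher). In the same list, the 1 gene lower between the targets (PAPPA) became 0 with a pseudocount of 10 or a minimum mean of 100, and 3 without a minimum. Leaving out a guide gave 3 to 4 lower for COLCA2, 0 to 1 higher and 0 to 1 lower between the targets. Low reads limit IGF2, IGF1 and PAPPA most.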

Other observations

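The nearest expressed protein-coding neighbours of several binding protein genes were tensins, which link integrins to actin. TNS3, 1353280 bp from IGFBP3, had normalized counts of 5964, 6349 and 6441 with COLCA2 guides 1 and 2 and the POU2F3 guide against 1303 in the control, log2 ratios of 2.19, 2.28 and 2.30. TNS4, 18097 bp from IGFBP4, had 63.2, 63.5 and 22.7 against 13.4, and TNS1, 1104063 bp from IGFBP5, had 78.8, 20 and 84.8 against 3.82, which is 4 reads. TNS2, on the chromosome of IGFBP6 but not its nearest gene, was looked up after these values were seen and had 387, 468 and 416 against 305, under 2-fold. On their other side IGFBP3 and IGFBP4 have ADCY1 and TOP2A, whose log2 ratios lay between -0.23 and 0.03. Of the 20 neighbours in all, counted once per side, 5 were at least 2-fold higher with both COLCA2 guides, beside 5.79% of all genes. With POU2F3 gRNA 3 were higher and 1 lower, beside 6.73% and 3.05% of all genes. IGFBP5, chosen for its rise, is itself 1 of the 5 and of the 3. TNS1 and TNS4 were below the minimum of 20 in the control and passed it through the edited libraries. Nothing is therefore read from these counts. The remaining pair higher with COLCA2 gRNA was IGFBP5 as the neighbour of IGFBP2, and CTSD, a lysosomal protease 364539 bp from IGF2, with 17314, 17233 and 13543 against 7794. The lower one was the tuft cell factor ASCL2, 118892 bp from IGF2 on the other side, with 228, 242 and 191 against 458.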
